A study of Homo sapiens with 6 samples.

Results

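Aminoacyl-tRNA synthetases were followed in human fibroblasts on day 8 of reprogramming towards pluripotency. The 40 members, of 27788 gene symbols measured, were chosen by name: every symbol made of 1 letter and ARS, with or without a final 2, and EPRS, FARSA, FARSB, TARSL2, AIMP1 and AIMP2. They comprise 21 cytosolic enzyme genes, 17 mitochondrial enzyme genes and the 2 scaffold genes AIMP1 and AIMP2. TARSL2, a threonyl-tRNA synthetase resembling TARS, counts as cytosolic here, and GARS and KARS each encode the enzyme of both compartments. The members were not chosen by their values, and all 40 reached the mean of 1 FPKM (fragments normalised to transcript length and library size) required for testing.

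The cells were BJ, an established line of human foreskin fibroblasts with no genotype named in the labels. All of them carried lentiviral polycistronic constructs, O2S (OCT4 and SOX2) and K2M (KLF4 and MYC), and had grown in serum for the first 5 days and in human embryonic stem cell medium from day 6. The surface proteins, CD13 (encoded by ANPEP) and CD201 (encoded by PROCR), were used to sort them into double-negative cells (CD13-CD201-), CD201-only cells (CD13-CD201+) and double-positive cells (CD13+CD201+). Each group has 2 libraries of stranded poly-A RNA, and no uninfected cells were analysed here. Every group comes from 1 line, so nothing speaks to other lines, and the labels do not say that replicates came from separate cultures: p-values measure only the spread between these libraries, which may be technical.

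A synthetase attaches an amino acid to its tRNA, the step that fixes the reading of the genetic code. The cytosol and the mitochondrion have separate sets, and all are encoded in the nucleus. In animal cells several cytosolic enzymes sit in a multisynthetase complex held together by AIMP proteins, while mitochondrial enzymes charge the tRNAs that translate the respiratory chain subunits made inside the organelle. The transcription factor ATF4, active when amino acids run short, binds a composite CEBP-ATF element in the promoters of many cytosolic synthetase genes.

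That element is shown first because it divides the cytosolic members by sequence, a property the choice of members did not use. RefSeq promoter windows on GRCh38.p14, from 250 bases before to 50 after a transcript start, were matched for 32 of 40 members under their current symbols (AARS1 for AARS and the like). The letters searched were TGATGNAA on both strands. They stood in at least 1 window of 7 of 16 cytosolic genes (43.8%), 1 of 14 mitochondrial genes (7.14%) and 0 of 2 scaffold genes, against 254 of 9778 tested genes (2.6%). A gene can have several windows: 1.31 per cytosolic gene, 1.29 per mitochondrial gene and 1.46 per tested gene. The 8 matches are printed along the strand of their gene with the element in capitals, and TTGCATCA is TGATGCAA read on the opposite strand.
AARS, chr16:70289676-70289703, minus strand: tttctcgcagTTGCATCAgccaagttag
CARS, chr11:3057408-3057435, minus strand: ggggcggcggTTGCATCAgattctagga
GARS, chr7:30594835-30594862, plus strand: tacgcggcgaTTTCATCAtgctccgagc
IARS, chr9:92293693-92293720, minus strand: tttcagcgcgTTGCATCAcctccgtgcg
MARS, chr12:57488054-57488081, plus strand: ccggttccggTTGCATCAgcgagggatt
NARS, chr18:57621805-57621832, minus strand: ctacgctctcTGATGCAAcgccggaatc
TARS, chr5:33440957-33440984, plus strand: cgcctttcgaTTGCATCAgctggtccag
YARS2, chr12:32756077-32756104, minus strand: tccacactgcTGATGGAAaaattaagtt
AARS, CARS, IARS, MARS, NARS and TARS carry the same 8 letters on 1 strand or the other, and GARS and YARS2 each differ at the free position. Counted from 0 at the transcript start, the element began at -33 in GARS, -13 in IARS, -4 in MARS, -2 in CARS, 2 in TARS and 14 in NARS, and farther out at -187 in AARS and -197 in YARS2. A match of letters is a description and not a binding site. WARS, the cytosolic member with the largest change in double-negative against double-positive cells, has no such match in its windows.

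Library depth was given only as relative depth, 0.735 to 1.0 across the 6 libraries, because the values are FPKM. In each library 11983 to 12168 genes reached 1 FPKM. Replicates of a group differed by a median coefficient of variation of 5.32% to 6.38% for genes from 1 to 10 FPKM, 2.06% to 2.81% from 10 to 100 and 0.97% to 1.97% above 100. The sorted proteins' transcripts lay on the side the gates give: ANPEP was at 28.74 to 36.21 FPKM in the CD13- libraries and 152.7 to 157.8 in the double-positive ones, and PROCR at 16.64 to 17.98 in double-negative libraries and 45.79 to 52.53 in the others. All 8 fibroblast markers were above 0 in every library, though DCN (0.6396 to 3.974 FPKM) and LUM (0.2643 to 3.58 FPKM), both matrix proteoglycans, were low, summing to 3746 to 4211 FPKM in the CD13- libraries and 8400 and 8506 in the double-positive ones.

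The levels of the members spanned a wide range. WARS, the tryptophanyl-tRNA synthetase, had the highest mean over the 6 libraries, 224.4 FPKM, and TARSL2 the lowest, 3.159 FPKM. The median of the cytosolic means was 47.06 FPKM and that of the mitochondrial means 13.64 FPKM. LARS2, the mitochondrial leucyl enzyme, led the mitochondrial members, and 15 of 21 cytosolic members had a higher mean than it. Summed over the 21 cytosolic members, the level was 1291 and 1288 FPKM in double-negative, 1193 and 1223 in CD201-only and 1044 and 1068 in double-positive libraries. The 17 mitochondrial members summed to 252.9 and 253.8, 250.8 and 252.7, and 203.1 and 203.1 FPKM in the same order. The cytosolic sum thus stepped down across the 3 groups, while the mitochondrial sums of the CD13- groups lay together, apart from the double-positive ones. All 40 members together took 0.314% of the summed FPKM in both double-negative libraries, 0.289% and 0.296% in the CD201-only pair and 0.265% and 0.27% in the double-positive pair. In bulk RNA, fewer cells of a type and less RNA per cell cannot be told apart.

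**Figure D1:**
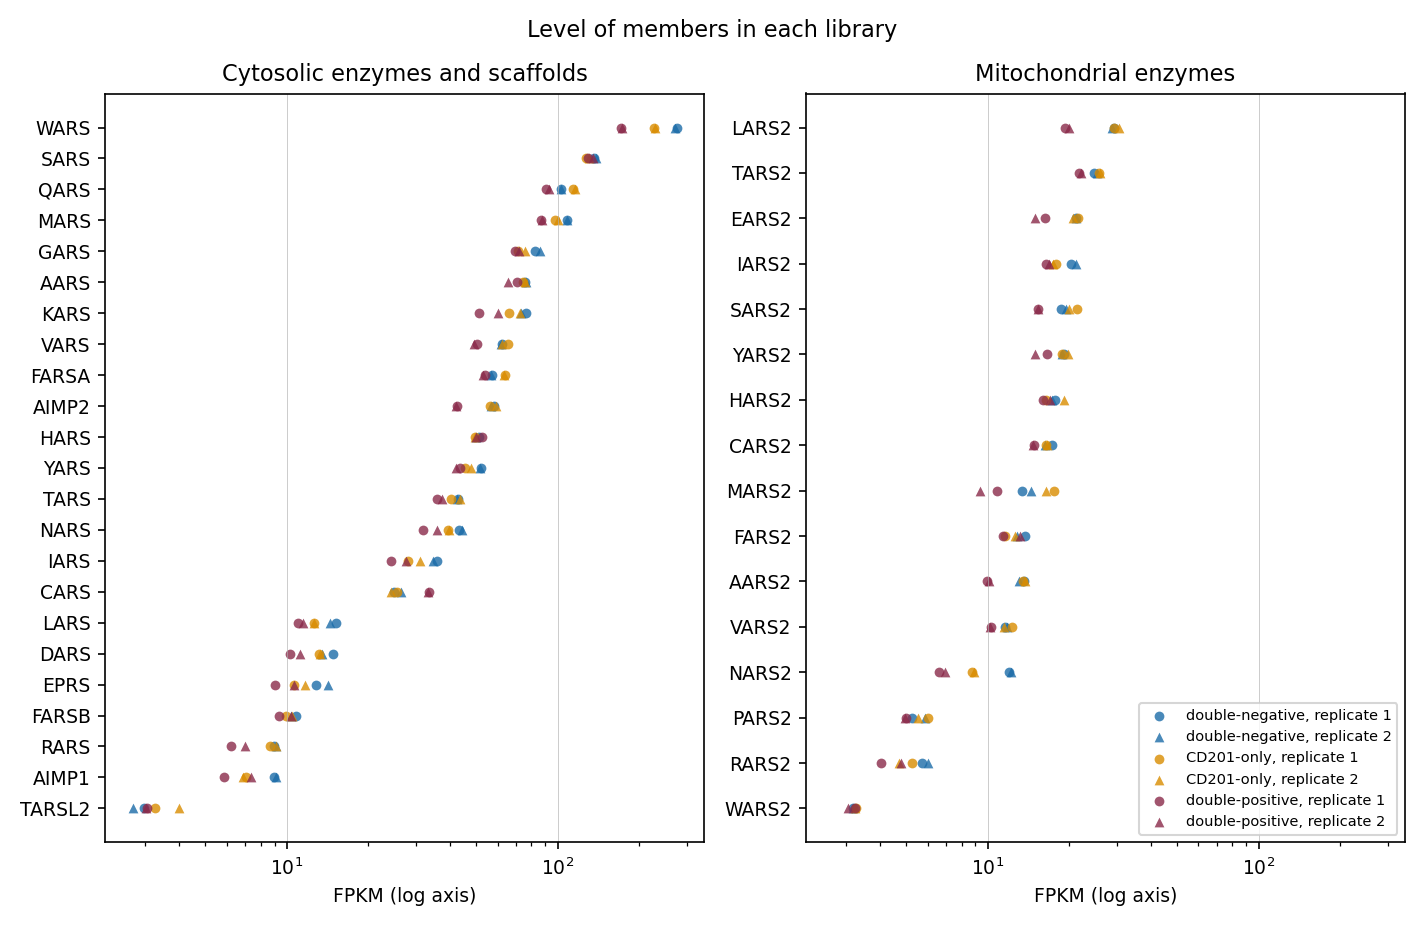
FPKM of 39 of the 40 members in each of the 6 libraries, on a log axis, cytosolic enzymes and scaffolds on the left and mitochondrial enzymes on the right, ordered by mean. Double-positive libraries lie at the left end of most rows, CARS is the clearest exception, and WARS stands highest at 171.8 to 275.1 FPKM.

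In the values as deposited most members were lowest in the double-positive cells. The lowest of the 3 group means was the double-positive one for 35 of 40 members, against 51.3% of all tested genes. Cytosolic members had their highest mean mostly in double-negative cells, 15 of 21, and mitochondrial members mostly in CD201-only cells, 10 of 17; over all tested genes these shares were 43.0% and 27.2%. CARS and HARS were the 2 members highest in double-positive cells, where 29.9% of all tested genes had their highest mean. A limma F test across the 3 groups, adjusted by Benjamini-Hochberg over all 12210 tested genes, called 31 of 40 members, against 73.0% of all tested genes.

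Against double-positive cells, 31 members were higher and 1 was lower in double-negative cells by limma's moderated test, with 8 not called. Of all tested genes 42.1% were called higher and 24.5% lower in this comparison. The median log2 change, on the log2(FPKM + 1) scale, was 0.27 for cytosolic and 0.27 for mitochondrial members and 0.11 for all tested genes. A median-ratio rescaling of the libraries moved the all-gene median to 0.02, the background to 31.1% higher and 30.8% lower, and the members to 22 higher and 2 lower. In CD201-only against double-positive cells, 24 members were higher and 1 lower, against 35.8% and 22.9% of all tested genes, and with the rescaling 19 and 3, against 28.3% and 27.2%. The 24 higher members were all among the 31, in a pair of comparisons that share the double-positive libraries. FARSB, HARS, SARS, TARSL2, FARS2, HARS2, PARS2 and WARS2 were called in none of the 3 pairwise comparisons of the values as deposited.

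**Figure D2:**
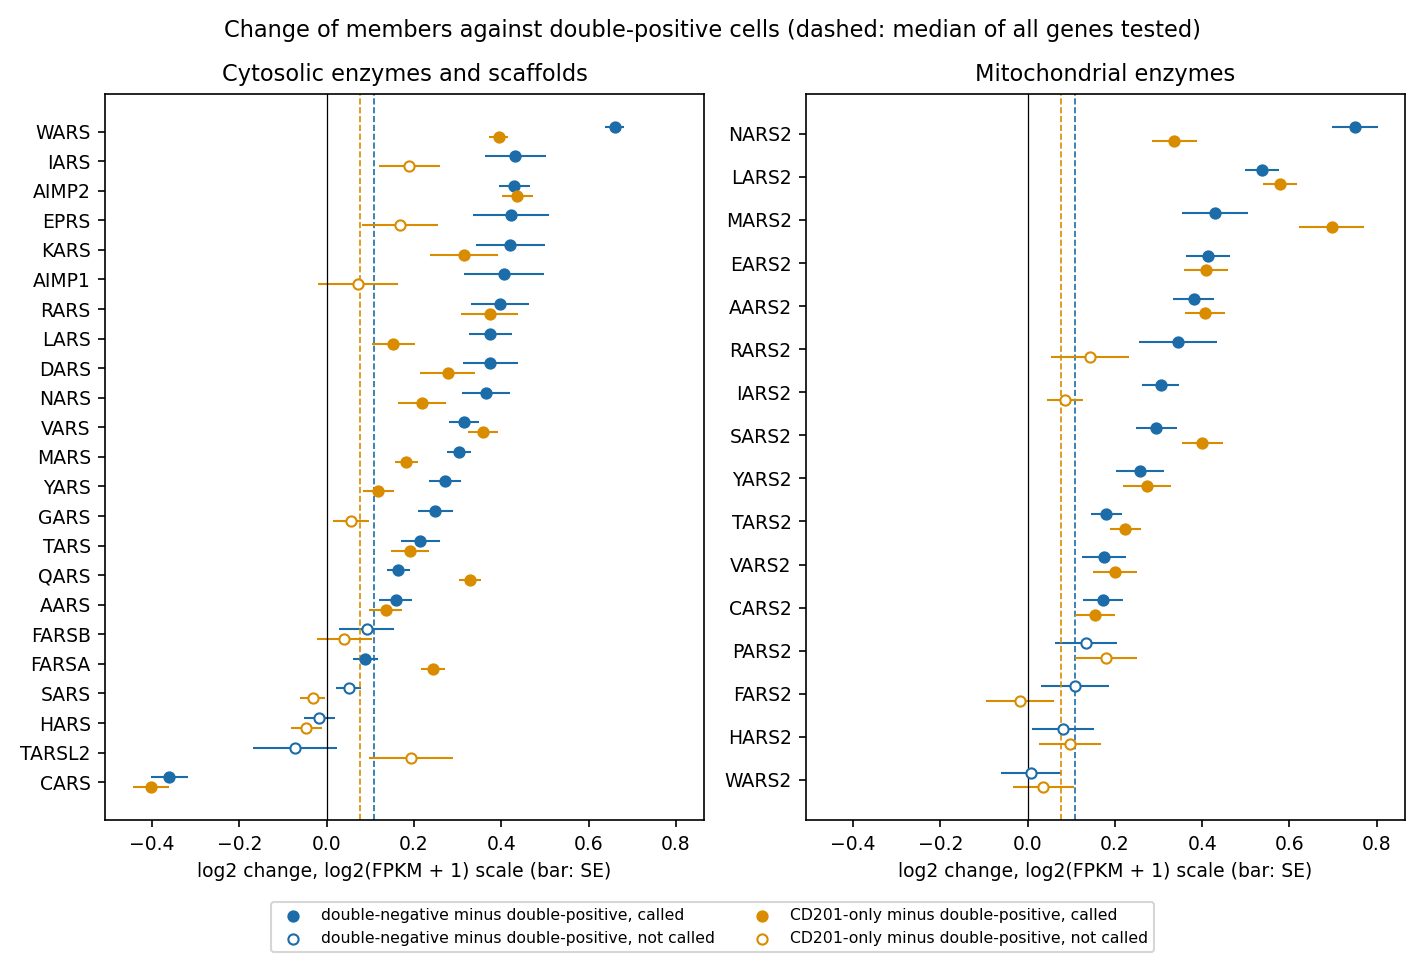
Log2 change with its SE (bars) of 39 of the 40 members in double-negative (blue) and CD201-only cells (orange) against double-positive cells, filled where limma's adjusted p was under 0.05. Dashed lines mark the median of all tested genes, 0.11 and 0.08; most members lie to the right of them, and CARS lies to the left at -0.36 and -0.40.

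Among the cytosolic enzymes outside the multisynthetase complex, WARS changed most in double-negative cells, and CARS and WARS changed most in CD201-only cells, against double-positive cells. WARS charges tRNA with tryptophan and is known to be induced by interferon gamma. It was at 275.1 and 271.7 FPKM in double-negative, 226.1 and 228.3 in CD201-only and 171.8 and 173.4 in double-positive libraries. The 3 groups did not overlap, and both steps passed the test. The log2 change against double-positive cells was 0.66 (SE 0.02, adjusted p 6.57e-07) in double-negative cells and 0.39 in CD201-only cells, and double-negative exceeded CD201-only cells by 0.27 (adjusted p 0.000117). No alternative setting ended any of these 3 calls.

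CARS, the cysteinyl-tRNA synthetase, ran the other way. Its levels were 24.96 and 26.39 FPKM in double-negative, 25.49 and 24.33 in CD201-only and 33.41 and 33.06 in double-positive libraries. The CD13- groups overlapped each other, and both lay below every double-positive library. The log2 change of CARS was -0.36 (SE 0.04) for double-negative cells, adjusted p 0.000257, and -0.40 (SE 0.04) for CD201-only cells, adjusted p 0.000181. In the GENCODE 29 annotation its exons overlap CARS-AS1 on the other strand. Whether counting used the strand is not given in the sources used here, so reads of CARS and CARS-AS1 may not be separated. The same holds for 20 of the 40 members, among them WARS (with WDR25), KARS (with TERF2IP), MARS (with DDIT3) and HARS and HARS2 (with each other).

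The other free cytosolic enzymes moved less than WARS against double-positive cells. VARS, the valyl enzyme that binds the elongation factor EEF1, was at 62.45 and 61.71 FPKM in double-negative, 65.7 and 62.29 in CD201-only and 50.28 and 49.14 in double-positive libraries, so the CD13- groups overlapped and both rose, by 0.31 and 0.36. GARS, the glycyl enzyme, was at 82.35 and 86.16, 71.11 and 75.99, and 69.67 and 71.77 FPKM in the same order. Its CD201-only and double-positive libraries overlapped, and the rise passed the test only in double-negative cells (log2 change 0.25, adjusted p 0.0014, against 0.06, adjusted p 0.282). NARS (0.37), YARS (0.27) and AARS (0.16), which charge asparagine, tyrosine and alanine, also rose in double-negative cells; the AARS call was lost under the median-ratio rescaling (0.05, adjusted p 0.303) and without double-negative replicate 2.

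TARS, the threonyl enzyme, was at 42.91 and 42.41 FPKM in double-negative, 40.4 and 43.57 in CD201-only and 35.82 and 37.44 in double-positive libraries. It rose by 0.21 and 0.19, and the rescaling ended the call in double-negative cells (0.11, adjusted p 0.0627). TARSL2 was at 2.971 and 2.69, 3.245 and 3.995, and 3.045 and 3.008 FPKM in the same order, with no call; both rescalings made it lower in double-negative than CD201-only cells (-0.30, adjusted p 0.0472, by median ratio). SARS, the seryl enzyme and the second most abundant member, was at 127.6 to 138.0 FPKM in all libraries. HARS, the histidyl enzyme, was at 49.32 to 52.51 FPKM. Neither SARS nor HARS was called, with log2 changes against double-positive cells between -0.05 and 0.05. With the rescaling HARS was lower in double-negative (-0.12, adjusted p 0.0273) and CD201-only cells (-0.11, adjusted p 0.0435), and SARS was lower in CD201-only cells (-0.10, adjusted p 0.0237).

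The phenylalanyl enzyme is built of an alpha subunit, FARSA, and a beta subunit, FARSB, and their transcripts differed in level and pattern. FARSA was at 57.08 and 56.74 FPKM in double-negative, 63.84 and 63.13 in CD201-only and 53.94 and 52.96 in double-positive libraries. It was highest in CD201-only cells, with no overlap of any pair of groups. The rise of FARSA over double-positive cells was 0.24 (adjusted p 0.000268) in CD201-only cells and 0.09 (adjusted p 0.0247) in double-negative cells. The second of these turned to -0.02 under the median-ratio rescaling. FARSB was at 9.35 to 10.77 FPKM across all libraries and was not called.

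All 8 enzyme genes of the multisynthetase complex rose in double-negative against double-positive cells: EPRS, IARS, LARS, MARS, QARS, RARS, KARS and DARS. Of all tested genes 42.1% were called higher in this comparison. The median log2 change was 0.39 for these 8 and 0.11 for all tested genes. It was 0.16 for the 13 free cytosolic enzymes, of which 8 rose and CARS fell. With the median-ratio rescaling 7 of the 8 were higher, beside 31.1% of all tested genes. The medians were then 0.29 for the 8, 0.05 for the free enzymes and 0.02 for all tested genes. The difference between the medians of the 2 kinds of enzyme was not tested. In CD201-only cells 6 of the 8 rose, and 5 with the rescaling, beside 35.8% and 28.3% of all tested genes. As deposited, the 2 not called were EPRS (0.17, adjusted p 0.135) and IARS (0.19, adjusted p 0.0522). Some alternatives did call these, among them leaving out double-positive replicate 2 (EPRS 0.28, adjusted p 0.0345, and IARS 0.28, adjusted p 0.0126). IARS, the isoleucyl enzyme, was at 35.74 and 34.51 FPKM in double-negative, 28.11 and 31.01 in CD201-only and 24.13 and 27.52 in double-positive libraries. EPRS, a fused glutamyl and prolyl enzyme, was at 12.83 and 14.15, 10.65 and 11.64, and 9.026 and 10.64 FPKM in the same order. Neither gene's double-negative libraries overlapped the double-positive ones. The log2 changes were 0.43 for IARS (adjusted p 0.00131) and 0.42 for EPRS (adjusted p 0.00405).

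KARS, the lysyl enzyme of both compartments, was at 76.56 and 73.02 FPKM in double-negative, 66.2 and 72.68 in CD201-only and 51.17 and 60.36 in double-positive libraries. The double-positive libraries were the farthest apart of its 3 pairs, and both lay below the rest. KARS rose by 0.42 and 0.31, and the second call was lost without CD201-only replicate 2 (adjusted p 0.073). RARS, the arginyl enzyme, was at 8.987 and 9.078, 8.644 and 9.098, and 6.233 and 7.026 FPKM, and rose by 0.40 and 0.37. LARS, the leucyl enzyme, which has also been described as a leucine sensor for the growth kinase mTORC1, was at 15.24 and 14.47, 12.55 and 12.61, and 10.95 and 11.5 FPKM. LARS rose by 0.38 and 0.15, and the call in CD201-only cells was lost under 6 of the alternatives, among them the rescaling (0.09, adjusted p 0.149) and leaving out either CD201-only replicate or double-positive replicate 1. MARS (0.30 and 0.18) and DARS (0.38 and 0.28), for methionine and aspartate, rose in both groups.

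QARS, which charges glutamine and has no mitochondrial partner, had a pattern like that of FARSA. Its levels were 102.7 and 103.0 FPKM in double-negative, 114.4 and 116.3 in CD201-only and 90.67 and 92.66 in double-positive libraries, with CD201-only cells highest. QARS rose by 0.33 (SE 0.03, adjusted p 3.89e-05) in CD201-only cells and by 0.16 (adjusted p 0.00104) in double-negative cells, and the rescaling ended the second call (0.06, adjusted p 0.0925).

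The scaffold genes differed. AIMP2, which holds the complex together, was at 58.29 and 56.58 FPKM in double-negative, 56.27 and 59.18 in CD201-only and 42.55 and 42.18 in double-positive libraries. The CD13- groups overlapped, and AIMP2 rose by 0.43 (adjusted p 4.21e-05) and 0.44 (adjusted p 4.65e-05). AIMP1, also the precursor of the cytokine EMAPII, was at 8.942 and 9.13, 7.031 and 6.884, and 5.864 and 7.353 FPKM. It rose in double-negative cells by 0.41 (adjusted p 0.00643), and its double-positive libraries spanned the CD201-only ones. EEF1E1, the remaining scaffold of the complex and no member, was at 20.99 to 28.38 FPKM and was not called.

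**Figure D3:**
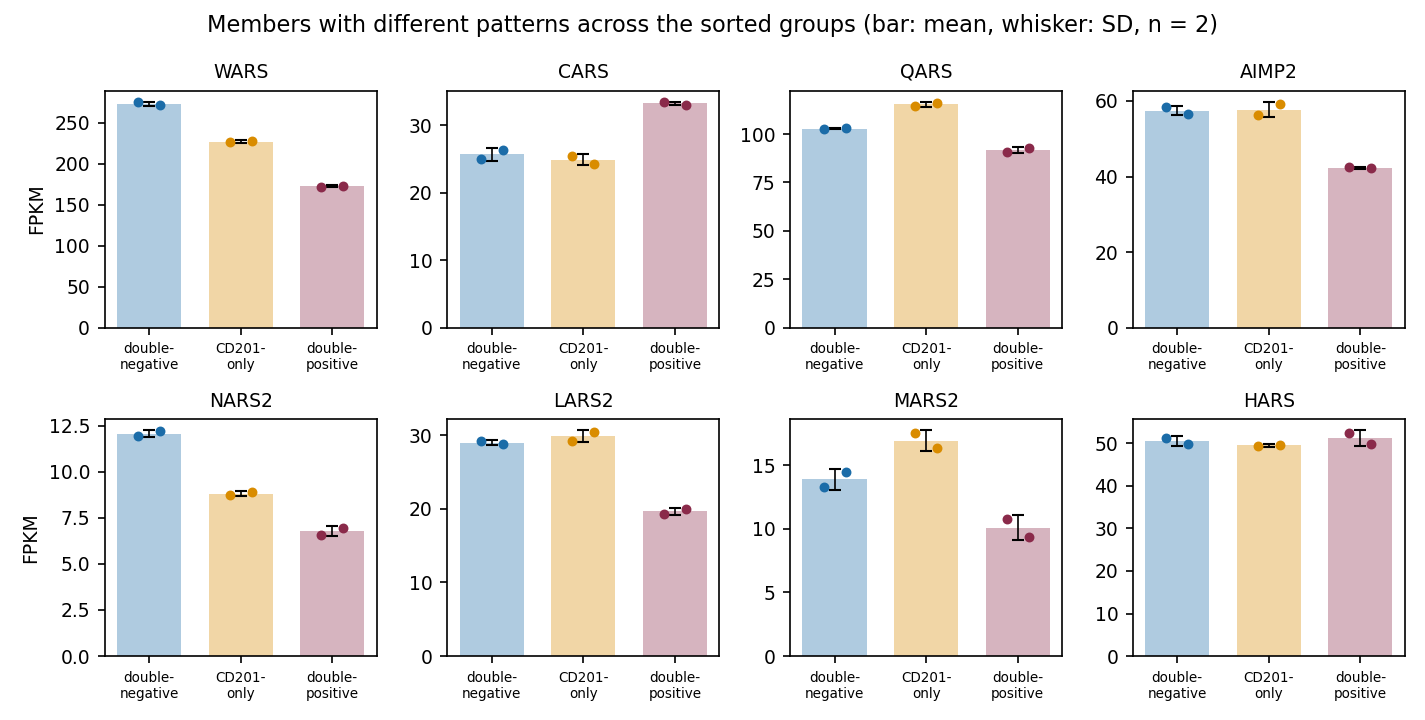
FPKM of 8 members by group: points are libraries, bars the mean and whiskers the SD of n = 2, on axes starting at 0. WARS and NARS2 step down across the groups, AIMP2 and LARS2 are low in double-positive cells, QARS and MARS2 are highest in CD201-only cells, CARS is highest in double-positive cells, and HARS shows no called difference in the values as deposited.

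Among the mitochondrial enzymes, 13 of 17 rose in double-negative and 10 of 17 in CD201-only cells, and none fell in either, beside 42.1% and 35.8% of all tested genes higher. With the median-ratio rescaling these counts were 8 and 8 of 17, beside 31.1% and 28.3%. NARS2, the mitochondrial asparaginyl enzyme, showed the largest change of all members in double-negative against double-positive cells. It was at 11.95 and 12.2 FPKM in double-negative, 8.734 and 8.9 in CD201-only and 6.596 and 6.961 in double-positive libraries. The 3 groups did not overlap. NARS2 rose by 0.75 (SE 0.05, adjusted p 1.86e-05) and, in CD201-only cells, by 0.34 (adjusted p 0.00125), a ratio of FPKM means of 1.78 and 1.3.

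LARS2, the mitochondrial leucyl enzyme, was at 29.25 and 28.75 FPKM in double-negative, 29.28 and 30.44 in CD201-only and 19.3 and 20.02 in double-positive libraries. The CD13- libraries lay together, well above the double-positive ones, with changes of 0.54 (adjusted p 2.33e-05) and 0.58 (adjusted p 1.98e-05). MARS2, the mitochondrial methionyl enzyme, was at 13.32 and 14.49, 17.51 and 16.35, and 10.78 and 9.381 FPKM. CD201-only cells were highest, and MARS2 rose by 0.43 in double-negative and 0.70 (SE 0.08, adjusted p 0.000205) in CD201-only cells, the largest change of a member in that comparison.

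EARS2, the mitochondrial glutamyl enzyme, was at 21.11 and 21.09 FPKM in double-negative, 21.52 and 20.58 in CD201-only and 16.28 and 14.95 in double-positive libraries. AARS2, the alanyl enzyme, was at 13.63 and 13.05, 13.51 and 13.69, and 9.891 and 10.14 FPKM. Both followed the LARS2 pattern, with changes of 0.41 and 0.41 for EARS2 and 0.38 and 0.41 for AARS2. TARS2, the threonyl enzyme, was at 24.66 and 25.33, 25.73 and 25.86, and 21.81 and 22.06 FPKM, and rose by 0.18 and 0.22, the first lost under the rescaling (0.08, adjusted p 0.105). IARS2, the isoleucyl enzyme, was at 20.35 and 21.2, 17.93 and 17.47, and 16.41 and 16.84 FPKM and stepped down like NARS2, rising by 0.31 in double-negative cells, with no call in CD201-only cells (0.09, adjusted p 0.12).

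The remaining mitochondrial members changed less than LARS2, MARS2, EARS2 and AARS2 against double-positive cells. SARS2 (0.29 and 0.40) and YARS2 (0.26 and 0.27), for serine and tyrosine, rose in both groups, though the rescaling ended the first YARS2 call (0.16, adjusted p 0.05). The rises of VARS2 (0.18 and 0.20) and CARS2 (0.17 and 0.15), for valine and cysteine, lost their calls under the rescaling in both groups. In GENCODE 29, 61.3% of the stretches of 50 nt of SARS2 also occur in the overlapping gene AC011455.2, so its level is uncertain; of the other members 8 shared between 0.141% and 3.15% and 31 shared none. RARS2, for arginine, rose in double-negative cells (0.35) and was not called in CD201-only cells (0.14), and it lost its call without double-negative replicate 2 or double-positive replicate 1. WARS2, the partner of WARS, lay between 3.047 and 3.259 FPKM in all libraries, and FARS2, HARS2 and PARS2 were likewise not called.

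Double-negative and CD201-only cells differ by the CD201 gate alone, and fewer members separated them. By limma 9 members were higher and 3 lower in double-negative cells, against 21.5% and 16.5% of all tested genes, and with the rescaling 6 and 5, against 17.5% and 20.2%. The median log2 change was 0.08 for cytosolic members, -0.02 for mitochondrial members and 0.04 for all tested genes. Of the 12 calls, 4 held in every alternative: WARS (0.27) and NARS2 (0.41, adjusted p 0.000931) were higher, and FARSA (-0.16, adjusted p 0.0046) and QARS (-0.16, adjusted p 0.00251) were lower.

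The other calls between these groups rested on fewer settings. IARS (0.24), GARS (0.19), LARS (0.22), MARS (0.12), YARS (0.15), AIMP1 (0.33) and IARS2 (0.22) were higher and MARS2 (-0.27, adjusted p 0.0293) was lower in double-negative cells. Each of the 8 lost its call when at least 1 library was left out, which leaves a group with a single library that is assumed to vary like the others. GARS lost it without double-negative replicate 2 (0.16, adjusted p 0.0738) and without CD201-only replicate 1. IARS2 lost it without double-negative replicate 2 (0.19, adjusted p 0.0534). IARS, MARS and YARS lost it without either double-negative replicate or CD201-only replicate 1, LARS without double-negative replicate 1 or either CD201-only replicate, and AIMP1 and MARS2 without any one of these 4 libraries.

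The 18 pairs of a cytosolic and a mitochondrial enzyme for the same amino acid differed widely in their ratio of FPKM. The cytosolic gene was higher in all 6 libraries for 15 pairs, and the mitochondrial gene for EPRS/EARS2, FARSB/FARS2 and LARS/LARS2. The median ratio over pairs was 2.58 and 2.58 in double-negative, 2.42 and 2.26 in CD201-only and 2.45 and 2.61 in double-positive libraries. Both CD201-only values lay below the rest, and the double-negative and double-positive ones overlapped. The ratio of WARS to WARS2 was 86.35 ± 0.8 (SD, n = 2) in double-negative cells, 69.94 ± 0.79 for the CD201-only pair and 54.98 ± 2.74 for the double-positive pair. NARS over NARS2 went the other way, 3.631 ± 0.00168, 4.482 ± 0.0485 and 4.991 ± 0.242 in the same order. LARS stood below LARS2, at 0.512 ± 0.0126, 0.422 ± 0.0103 and 0.571 ± 0.00488. MARS over MARS2 was lowest in CD201-only cells, 5.869 ± 0.407, against 7.774 ± 0.457 and 8.704 ± 0.923. These ratios are described without a test.

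**Figure D4:**
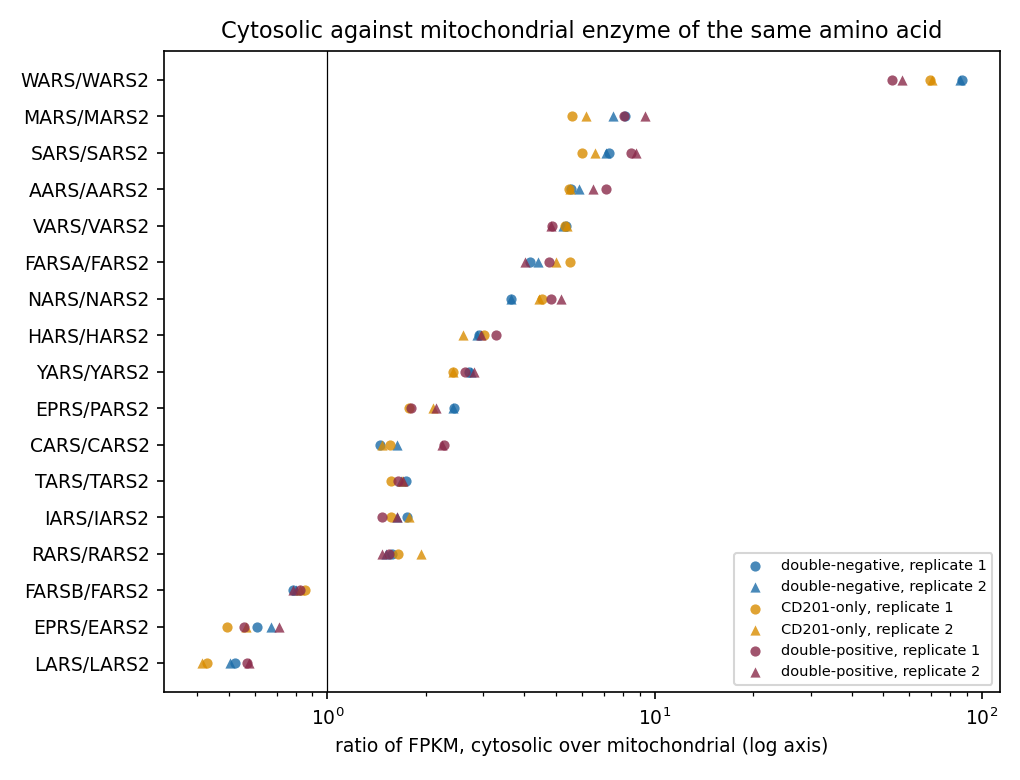
Ratio of the cytosolic to the mitochondrial FPKM for 17 of the 18 pairs in each library, on a log axis with a line at 1. WARS/WARS2 stands apart at 53.04 to 86.92, 3 pairs lie below 1, and the libraries of 1 pair mostly lie close together.

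Grouped by the CEBP-ATF element printed above, the cytosolic members did not divide by direction against double-positive cells. Of the 7 with the element, 6 rose and CARS fell in double-negative against double-positive cells, with a median log2 change of 0.25. Of the 9 with windows and no match, 6 rose and none fell, with a median of 0.16. All tested genes gave 42.1% called higher and 24.5% lower in this comparison, with a median of 0.11. In CD201-only cells the medians were 0.18 and 0.24, beside 0.08 for all tested genes, so the order of the 2 groups turned. In double-negative against CD201-only cells, 3 of the 7 (GARS, IARS and MARS) were higher and 0 lower, with a median of 0.12. Of the 9 without a match, 1 was higher and 2, FARSA and QARS, were lower, with a median of 0.05. All tested genes gave 21.5% higher, 16.5% lower and a median of 0.04. The difference between the members with and without the element was not tested. Other motifs were searched the same way: the E-box CACGTG stood in a window of 15.6% of members against 12.7% of all tested genes, the NRF1 motif in 21.9% against 13.5%, and TTCNNNGAA (the interferon gamma-activated GAS element) in 15.6% against 8.39%. Matches to the last stood in CARS, TARS, WARS, PARS2 and WARS2. In double-negative against double-positive cells CARS fell, TARS and WARS rose, and PARS2 and WARS2 were not called. Only the 1 match of WARS is printed, because WARS is the member known for its interferon response.
WARS, chr14:100375471-100375499, minus strand: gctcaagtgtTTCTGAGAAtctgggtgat

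Genes of the ATF4 amino acid response, a list of 25, did not move as a block. In double-negative against double-positive cells 13 were higher and 7 lower, and in CD201-only cells 7 were higher and 10 lower, beside 42.1% and 24.5%, and 35.8% and 22.9%, of all tested genes. With the median-ratio rescaling the counts were 9 and 10, and 6 and 12, beside 31.1% and 30.8%, and 28.3% and 27.2%. ALDH1L2, among the lower in both groups, reached the mean of 1 FPKM required for testing only through its double-positive libraries. It was at 1.766 and 2.278 FPKM there and at 0.6518 to 0.7089 in the CD13- libraries. ATF4 was at 416.4 and 409.9 FPKM in double-negative, 409.2 and 405.8 in CD201-only and 375.0 and 376.6 in double-positive libraries and rose by 0.14 (adjusted p 0.000863) and 0.12. The 3 genes the naming rule takes from this list all fell in both groups. Their log2 changes were -1.29 and -1.35 for CEBPB, a CEBP factor, -0.53 and -1.30 for CHAC1, a glutathione-degrading enzyme, and -1.16 and -0.81 for NUPR1, a stress-induced chromatin protein. Large rises stood beside them: CTH, which makes cysteine from cystathionine, rose by 1.11 and 0.48, and PHGDH, the first enzyme of serine synthesis, by 0.83 and 0.80. Double-negative cells had 12 genes higher and 5 lower than CD201-only cells, against 21.5% and 16.5% of all tested genes. With the rescaling these counts were 11 and 5, against 17.5% and 20.2%. CHAC1 was among the higher as deposited (0.78, adjusted p 6.72e-05).

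Of 14 interferon-gamma response genes 6 were tested, and all 6 were lower in both CD13- groups, the opposite of WARS. Of all tested genes 24.5% were called lower in double-negative and 22.9% in CD201-only cells. PSMB9, an immunoproteasome subunit, was at 4.153 and 3.351 FPKM in double-negative, 2.104 and 2.121 in CD201-only and 15.57 and 17.08 in double-positive libraries, with log2 changes of -1.87 and -2.48. The changes were -1.21 and -1.39 for GBP1, a guanylate-binding protein, and -1.305 and -1.25 for IRF1, a transcription factor of the response. GBP1 reached the mean of 1 FPKM required for testing only through its double-positive libraries, so the filter favoured its direction. It was at 3.532 and 3.864 FPKM there and at 0.7182 to 1.37 in the CD13- libraries. CXCL9, CXCL10 and CXCL11 were listed at 0 in all libraries.

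Of 12 tested partners of charging and translation in mitochondria, 9 were higher and 1 lower in double-negative, and 7 higher and 1 lower in CD201-only cells, against double-positive cells. All tested genes gave 42.1% and 24.5%, and 35.8% and 22.9%. With the median-ratio rescaling 5 were higher and 2 lower in either group, beside 31.1% and 30.8%, and 28.3% and 27.2%, of all tested genes. GFM1, a mitochondrial elongation factor, was at 18.01 and 18.44 FPKM in double-negative, 16.42 and 16.88 in CD201-only and 12.26 and 12.65 in double-positive libraries, and rose by 0.51 and 0.39. MTFMT, which formylates the initiator methionyl-tRNA, rose by 0.42 and 0.25. MTIF2, an initiation factor, rose by 0.47 and 0.23, the second lost under the rescaling and without CD201-only replicate 2 or either double-positive replicate. MTIF3, another initiation factor, fell, with changes of -0.35 (adjusted p 0.000552) and -0.22 (adjusted p 0.00653).

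Of 10 tested cytosolic elongation factors and charging partners, 6 were higher in double-negative and 8 in CD201-only cells, and none was lower. Of all tested genes 42.1% and 35.8% were higher. With the rescaling 3 and 4 were higher, beside 31.1% and 28.3% of all tested genes. EEF1A1, which carries charged tRNA to the ribosome, rose by 0.53 (adjusted p 0.00447) in double-negative cells, and its rise of 0.32 in CD201-only cells was lost under 10 alternatives. EEF1D, an exchange factor of EEF1A1, rose by 0.31 in CD201-only cells and stood at 0.09 in double-negative cells, where the rescaling turned it to -0.02. PSTK, a kinase of the selenocysteine pathway, had its call in CD201-only cells (0.44, adjusted p 0.0447) lost under 10 alternatives too. Among 11 genes of leucine and arginine sensing by mTORC1, 4 were higher and 1 lower in double-negative cells, where 42.1% and 24.5% of all tested genes were. In CD201-only cells 6 were higher and 2 lower, where 35.8% and 22.9% of all tested genes were. With the rescaling the double-negative counts were 4 and 4, beside 31.1% and 30.8%, and the CD201-only counts 6 and 2, beside 28.3% and 27.2%. RRAGD, a Rag GTPase, rose by 1.27 and 0.71, SESN1, a sestrin, by 0.49 and 0.23, and SESN3 by 0.35 in CD201-only cells, the last 2 calls in CD201-only cells lost when single libraries were left out. SESN3 reached the mean of 1 FPKM required for testing only through its CD201-only libraries. It was at 1.59 and 1.489 FPKM there and at 0.7339 to 1.07 in the other libraries.

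Marker lists also differed between the groups. All 8 proliferation markers were higher in double-negative and in CD201-only than in double-positive cells, with summed levels of 327.4 and 330.3, 341.7 and 346.4, and 230.6 and 233.2 FPKM. Of the pluripotency markers 7 of 7 tested were higher in both, with sums of 177.4 and 180.8, 109.1 and 109.9, and 50.76 and 53.3 FPKM. Of all tested genes 42.1% were called higher in double-negative and 35.8% in CD201-only cells. With the median-ratio rescaling 7 of 8 proliferation markers stayed higher in double-negative cells and all 8 in CD201-only cells. The 7 pluripotency markers stayed higher in both groups. All tested genes then gave 31.1% and 28.3%. Keratinocyte markers summed to 10.46 to 11.3, 19.19 to 19.46 and 42.27 to 43.61 FPKM, endothelial ones to 17.48 to 18.09, 27.19 to 29.23 and 24.93 to 27.08, and blood ones to 31.21 to 32.77, 16.16 to 18.21 and 85.57 to 89.83, with CD3E at 0 in all libraries. Single markers of a list went different ways. THY1, a fibroblast surface protein, was higher in double-negative than double-positive cells (0.26), unlike the summed fibroblast markers. KRT5, a basal keratin, was higher in CD201-only than double-positive cells (0.64), while KRT14 was lower (-3.05). In double-negative against double-positive cells KDR, a receptor of endothelial cells, was higher (1.35) and ROBO4 lower (-2.21). KDR reached the mean of 1 FPKM required for testing only through its double-negative libraries (3.066 and 3.046 FPKM). ROBO4 did so only through its double-positive libraries (5.245 and 5.539 FPKM). The part of these lists in the synthetase results was not tested.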

How the data were processed

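The deposited FPKM values, 1 table of 27788 symbols in 6 libraries, were made by the authors with STAR and Cuffnorm on hg19 (GRCh37), per the submitters' processing notes. Versions, annotation, strand setting and scaling option: not given in the sources used here. Libraries were grouped by their labels, 2 per group.

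Values were taken as log2(FPKM + 1), which understates changes of low genes. The 12210 genes whose mean reached 1 FPKM were fitted in limma 3.58.1 (R 4.3.3) with a variance trend and 1 coefficient per group, on 3 residual degrees of freedom and a prior of 3.95. Each pairwise comparison was adjusted by Benjamini-Hochberg over all genes, with calls below 0.05. Simulated data were used to test the fit. Python 3.11.15 with pandas 2.3.3 did the rest.

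Members, gene lists and tests were chosen with earlier results of these data known. Library values are given for the 4 cytosolic and 4 mitochondrial members with the largest called change per comparison, members called against their class, AIMP1, AIMP2, TARS, TARS2 and TARSL2. From each list the 3 called genes with the largest change in any comparison are named. Further genes given with values, such as ATF4, CTH, PHGDH, MTIF3 and EEF1E1, were named after their values were seen. Promoter windows are RefSeq's on GRCh38.p14, shared and antisense stretches come from GENCODE 29, and no coordinate was carried between builds. Alternatives were a pseudocount of 0.1, no filter or a mean of 5 FPKM, 2 rescalings (median-ratio and quantile), other variance models, fits of only the groups compared, a replicate block and leaving out each library. The values of 1 member, counted in the totals, are not reported here.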

Additional observations from a re-analysis of the deposited data

How the results depend on the processing

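Of 1776 values of 119 single-gene results under the alternatives, 1622 kept direction and side of the threshold, 131 lost a call, 7 gained one and 16 changed sign. Most of these results were calls to begin with; over all members and comparisons, 33 values gained a call, in 15 of the 51 results without one. The sign changes under the median-ratio rescaling were, for double-negative minus double-positive, FARSA -0.0167, FARSB -0.0062, SARS -0.0563, HARS2 -0.0203, WARS2 -0.0735 and EEF1D -0.0171, and, for double-negative minus CD201-only, TARS -0.0172. Quantile normalization gave SARS -0.0106 and WARS2 -0.0289. Leaving out single libraries moved HARS over -0.054 to 0.02 and WARS2 over -0.0255 to 0.0419 (double-negative minus double-positive), TARS over -0.0296 to 0.0766 and AIMP2 over -0.0426 to 0.029 (double-negative minus CD201-only), and AIMP1 over -0.0701 to 0.2132 (CD201-only minus double-positive). The cause of these changes was not tested.

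Of the calls, 22 of 32 (double-negative against double-positive), 18 of 25 (CD201-only against double-positive) and 4 of 12 (double-negative against CD201-only) held in every alternative. The rescaling left 2 and 3 cytosolic members lower in the comparisons with double-positive cells, 3 cytosolic members higher in double-negative than CD201-only cells, 8 mitochondrial members higher in double-negative than double-positive cells and 2 lower than in CD201-only cells. Quantile normalization gave 2 cytosolic members lower in CD201-only than double-positive cells. Leaving out single libraries gave 8 (without CD201-only replicate 2) to 13 cytosolic members higher in CD201-only than double-positive cells. In double-negative against CD201-only cells it gave 1 (without CD201-only replicate 1) to 9 (without double-positive replicate 1) cytosolic members higher, and 1 to 2 mitochondrial members higher and 0 to 1 lower. MARS2 lost the last call with no filter and with no variance trend (0 lower).

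Same-numbered libraries correlated by 0.076, -0.073 and 0.117 in their deviations. Each deviation is a single difference per gene and group, so these values cannot settle whether the numbers pair the libraries. With the replicate block 31 of 32, 25 of 25 and 12 of 12 calls remained. EPRS and IARS gained a call in CD201-only against double-positive cells, and EPRS and SARS in double-negative against CD201-only cells. Taken on FPKM + 1, the ratio of WARS to WARS2 was 65.87, 53.71 and 41.93, of LARS to LARS2 0.528, 0.44 and 0.592, and of NARS to NARS2 3.43, 4.127 and 4.478 (double-negative, CD201-only, double-positive). A filter at 5 FPKM left TARSL2 and WARS2 untested. Absolute depth was not computed, which limits what can be said of members under 10 FPKM.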
